A study of Rattus norvegicus with 31 samples.

Results

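Slc2a5 (ENSRNOG00000017693) encodes GLUT5, the fructose transporter, and Khk (ENSRNOG00000008047) encodes ketohexokinase, the enzyme that phosphorylates fructose once it is inside the cell. Both were followed in the gastrocnemius, a calf muscle, of 31 female Sprague Dawley rats aged 7 months. The 2 genes were taken by symbol from the 11289 genes in the deposited tables, each matched exactly 1 row, and both were among the 10082 genes that passed a filter on low counts. The Ucp1 knockout groups were kept for 14 days at 4 °C (n = 8) or at room temperature (n = 7). The control groups were kept for 14 days at 4 °C (n = 8) or at room temperature (n = 8). The labels give day 14 for all 31 rats, those at room temperature included. All ate chow. Ucp1 is the uncoupling protein with which brown fat makes heat. The labels give neither the knockout allele nor the litter, Ucp1 was not analysed here, and genotype therefore rests on the labels. Each library is 1 rat, and libraries are named below by group and animal number.

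GLUT5 is selective for fructose and carries little glucose. Ketohexokinase turns fructose into fructose 1-phosphate, which enters triose metabolism below the phosphofructokinase step that limits glycolysis. Liver, kidney and small intestine use the high-affinity KHK-C isoform, while most other tissues, muscle among them, carry mainly the low-affinity KHK-A isoform made from an alternative exon. Muscle can also phosphorylate fructose with hexokinase. The libraries were made with a 3' kit that reads the end of each transcript, so the counts of Khk do not separate the A and C isoforms. In bulk muscle, fewer cells of a type and less RNA per cell cannot be told apart.

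Total counts per library were 6.56 M to 11.9 M. The skeletal muscle markers Acta1, Ckm, Mb, Myh1, Tnnt3, Tnnc2, Mylpf and Pvalb, 8 of 10 listed, summed to between 93013 and 192301 CPM, counts scaled to a common library size, in every library. Myh2 and Myh4 were not tested. Of 8 markers of kidney, liver and intestine epithelium 0 were among the tested genes. On the second principal component the room temperature controls numbered 1 and 2 lay far from the other 29 libraries. Cold changes and genotype differences of Slc2a5 and Khk, marker values and relations within groups that use them are given also without them. The fitted changes printed for other genes rest on all 31 libraries.

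The 250 bases before 1 RefSeq transcript start of each gene are shown because the levels of both genes differed in the same direction between the temperatures. They come from build GRCr8, while the counts rest on Rnor 6.0. Both stretches lie inside the span that RefSeq gives the gene, which begins farther upstream, and which start muscle uses was not tested. The Slc2a5 stretch is chr5:165865929-165866178 on the plus strand, and the Khk stretch is chr6:31175482-31175731 on the minus strand. Both are written 5′ to 3′ with the motifs found in capitals, namely CAGCTG in both, an inverted CCAAT box in Slc2a5 and GGGCGG in Khk.
Slc2a5: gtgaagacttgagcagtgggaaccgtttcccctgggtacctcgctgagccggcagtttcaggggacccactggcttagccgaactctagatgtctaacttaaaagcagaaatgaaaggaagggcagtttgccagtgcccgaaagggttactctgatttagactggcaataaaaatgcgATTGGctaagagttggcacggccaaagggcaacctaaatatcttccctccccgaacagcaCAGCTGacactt
Khk: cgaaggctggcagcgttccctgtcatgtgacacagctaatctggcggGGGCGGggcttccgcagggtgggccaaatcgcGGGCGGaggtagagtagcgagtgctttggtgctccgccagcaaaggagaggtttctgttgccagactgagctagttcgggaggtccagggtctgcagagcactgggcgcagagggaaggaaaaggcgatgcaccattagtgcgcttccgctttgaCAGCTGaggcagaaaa

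CAGCTG, an E-box that muscle and other basic helix-loop-helix factors can bind, lay at -12 to -7 in Slc2a5 and at -16 to -11 in Khk, counted back from the transcript start. It was present in 4007 of 33469 rat promoter stretches of this length (12%). The CCAAT box of Slc2a5 lay at -72 to -68, and CCAAT was in 34.0% of the stretches. Khk held GGGCGG, the GC box, at -203 to -198 and at -171 to -166, against 30.5% of stretches with at least 1. The palindromic E-box CACGTG, present in 5.59% of stretches, was in neither. A pair of CACGTG motifs 5 bases apart was in 0 of the 33469 stretches, and a direct repeat of AGGTCA with 4 bases between was in 1, which belonged to neither gene. Both strands were searched for each motif, the CAGCTG E-box, the CCAAT box and the GC box were chosen after these sequences had been read, and a match is a description of the letters only.

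Slc2a5 was higher in the cold in both genotypes. In knockout rats its level was 5.90, 6.92 and 12.6 CPM (lowest, median and highest) at 4 °C, against 1.68, 3.03 and 5.09 CPM at room temperature. Each of the 8 cold knockouts lay above each of the 7 room temperature knockouts. Over all tested genes, 0.546% did not overlap between these groups, 0.357% higher and 0.188% lower in the cold. In control rats the level of Slc2a5 was 4.92, 6.26 and 12.2 CPM at 4 °C, against 2.17, 3.25 and 5.598 CPM at room temperature. These groups overlapped through control animal 3 at room temperature, the highest of its group at 5.598 CPM, and control animals 16 and 22 in the cold. The other 6 cold controls lay above all room temperature controls.

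The mean level of Slc2a5 was 8.05 ± 2.26 CPM in cold knockouts and 3.23 ± 1.09 CPM in room temperature knockouts (SD, n = 8 and 7), and 7.60 ± 2.74 CPM in cold controls and 3.45 ± 1.11 CPM in room temperature controls (SD, n = 8 each). The fitted cold change was 1.31 ± 0.23 on the log2 scale in knockouts (SE), a fold of 2.47, and 1.14 ± 0.23 in controls, a fold of 2.20. Both genes were selected on values measured in these libraries. Which values were used is not recorded. The cold responses of both genes were known when they were proposed and were taken to be among those values. The cold changes are therefore given as descriptions, without a test. Without control animals 1 and 2 at room temperature the change in controls was 1.219.

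**Figure D1:**
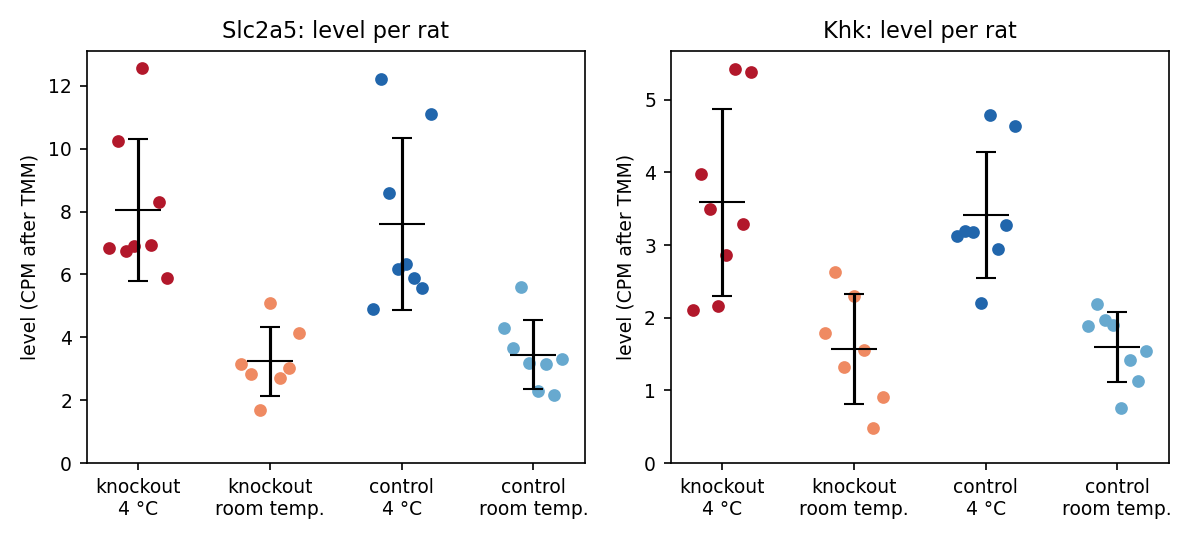
Level of Slc2a5 (left) and Khk (right) per rat, in CPM after TMM scaling. Points are rats in the groups knockout at 4 °C, knockout at room temperature, control at 4 °C and control at room temperature, and bars are the mean ± SD. For both genes the cold groups stand above the room temperature groups in each genotype, without overlap for Slc2a5 in knockouts and for Khk in controls.

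Khk was also higher in the cold in both genotypes. In knockout rats its level was 2.11, 3.39 and 5.43 CPM at 4 °C (lowest, median and highest), against 0.488, 1.55 and 2.64 CPM at room temperature. These groups overlapped: cold knockouts 24 and 27, at 2.11 and 2.16 CPM, were below room temperature knockouts 10 and 12, at 2.64 and 2.304 CPM. In control rats Khk stood at 2.20, 3.18 and 4.79 CPM at 4 °C, against 0.760, 1.72 and 2.19 CPM at room temperature. The control groups did not overlap, but only narrowly, since cold control 19 was at 2.20 CPM and room temperature control 2 at 2.19 CPM. Over all tested genes, 0.436% did not overlap between the control groups, 0.327% higher and 0.109% lower in the cold.

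Mean levels of Khk were 3.59 ± 1.29 CPM in cold knockouts and 1.57 ± 0.752 CPM in room temperature knockouts (SD, n = 8 and 7), and 3.42 ± 0.869 CPM in cold controls and 1.601 ± 0.481 CPM in room temperature controls (SD, n = 8 each). Its fitted cold change was 1.18 ± 0.27 on the log2 scale in knockouts (SE), a fold of 2.27, and 1.10 ± 0.27 in controls, a fold of 2.14. Without control animals 1 and 2 at room temperature the change in controls was 1.24. For both genes the order of the mean levels had the cold groups, knockout before control, above the room temperature groups, and within each temperature the genotypes differed by less than 1 SD.

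These levels rest on few reads. Slc2a5 had 51 to 123 reads per library in cold knockouts, 14 to 53 in room temperature knockouts, 44 to 92 in cold controls and 21 to 37 in room temperature controls. Khk had 16 to 62, 5 to 28, 20 to 49 and 7 to 21 reads in those groups, in the same order. Counting error alone corresponds to a coefficient of variation of 28.3% for Khk in room temperature controls, where the rats varied by 30.03%, and of 29.8% in room temperature knockouts, where they varied by 47.8%. For Slc2a5 counting error came to 11.5%, 19.3%, 12.7% and 18.98% in the 4 groups, against an observed 28.04%, 33.7%, 36.05% and 32.02%. For Khk in room temperature controls, the spread between rats was thus close to the counting error.

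**Figure D2:**
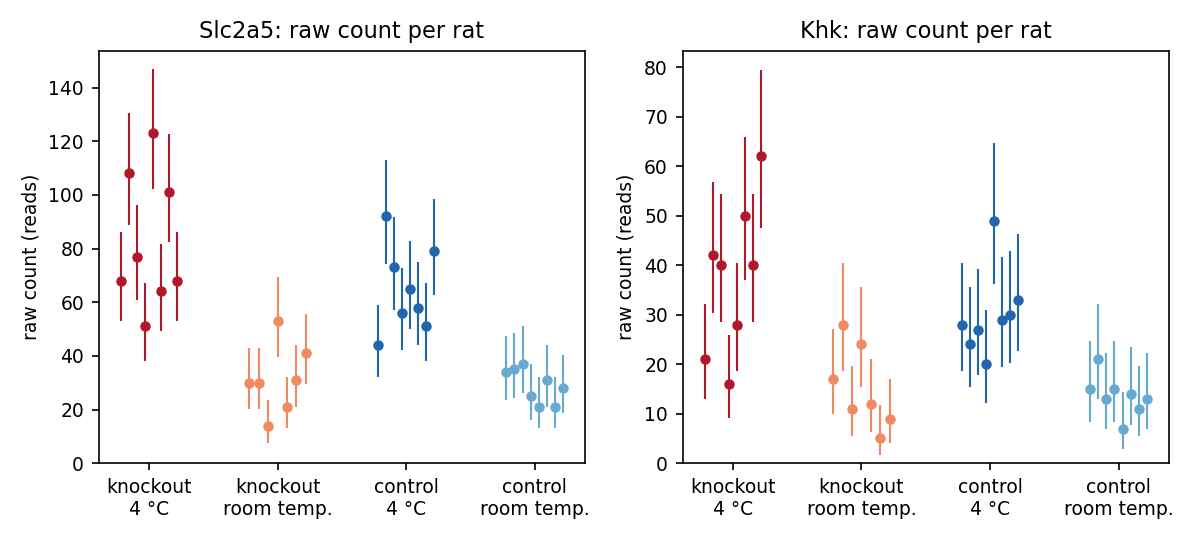
Raw reads counted for Slc2a5 (left) and Khk (right) in each rat, with exact 95% Poisson intervals as bars, which cover counting error only. Room temperature rats have 14 to 53 reads of Slc2a5 and 5 to 28 of Khk, so their bars are wide relative to the counts.

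Neither gene differed detectably between genotypes, in tests that may not be independent of how the genes were selected. At 4 °C Slc2a5 changed by 0.09 ± 0.22 in knockouts relative to controls on the log2 scale (SE; 95% interval -0.35 to 0.53; adjusted p = 0.988, quasi-likelihood test of edgeR, Benjamini-Hochberg adjusted over 10082 genes). Khk changed by 0.08 ± 0.25 there (95% interval -0.44 to 0.59; adjusted p = 0.99 by the same test). At room temperature the knockout minus control difference was -0.08 ± 0.24 for Slc2a5 (interval -0.57 to 0.42; edgeR adjusted p = 0.976) and -0.01 ± 0.29 for Khk (interval -0.61 to 0.58; edgeR adjusted p = 0.995). Without control animals 1 and 2 the room temperature differences were 0.0034 and 0.14. Of all tested genes, 0.00992% passed at 4 °C, which is 1 gene by edgeR against 6 by DESeq2, and 0% at room temperature. The levels of both genes overlapped between genotypes at each temperature, and over all tested genes 0.00992% did not overlap at 4 °C and 0.0595% at room temperature, 0.0298% in each direction.

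The cold change itself did not differ detectably between genotypes either. The cold change in knockouts minus that in controls was 0.17 ± 0.32 on the log2 scale for Slc2a5 (interval -0.50 to 0.83; edgeR adjusted p = 0.949) and 0.09 ± 0.38 for Khk (interval -0.69 to 0.87; edgeR adjusted p = 0.979). Without control animals 1 and 2 at room temperature this difference was 0.10 for Slc2a5 and -0.05 for Khk. In this interaction 0% of genes passed by edgeR, with 737 at an unadjusted p under 0.05 and 1 called by DESeq2. At room temperature 712 genes had an unadjusted p under 0.05 between the genotypes, and DESeq2 called 1.

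**Figure D3:**
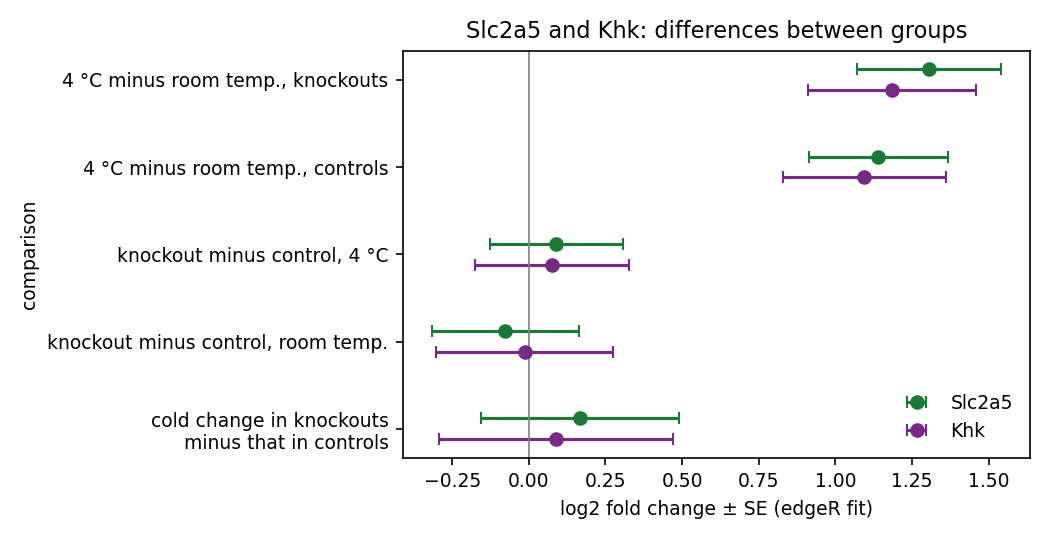
Fitted differences of Slc2a5 and Khk in 5 comparisons, as log2 fold changes with the SE as bars. Cold minus room temperature lies between 1.10 and 1.31 for both genes and both genotypes, and every knockout minus control difference lies between -0.08 and 0.09.

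The lipogenic genes Scd, Fasn, Thrsp and Acly, which turn sugar carbon into fat, were set beside the pair. They too were chosen with earlier results of these data known, so their changes and p-values are descriptions and no independent test. Scd, a fatty acid desaturase, had a cold change of 4.80 ± 0.71 in knockouts and 2.13 ± 0.61 in controls (log2, SE), and the difference between them did not pass (2.67 ± 0.90; edgeR adjusted p = 0.538). The cold change of Thrsp was 3.33 in knockouts and 1.36 in controls, that of Fasn 3.13 and 1.58, and that of Acly 0.97 and -0.07. The difference between genotypes was 1.97 for Thrsp, 1.56 for Fasn and 1.04 for Acly and did not pass for these either (edgeR adjusted p = 0.452 to 0.597). Before adjustment the edgeR p was 0.000528 for Thrsp, 0.0159 for Fasn, 0.00189 for Acly and 0.00576 for Scd. That difference was 0.17 for Slc2a5 and 0.09 for Khk.

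Other genes of sugar handling were read from 6 lists holding 70 symbols, of which 43 were tested. In the cold, 0 of 43 passed in knockouts and 0 of 43 in controls by edgeR's quasi-likelihood test, against 1.38% and 0.853% of all tested genes. Of all tested genes 1.02% rose and 0.357% fell in cold knockouts, and 0.595% rose and 0.258% fell in cold controls. At an unadjusted edgeR p under 0.05 there were 5 of 43 in knockouts and 5 of 43 in controls. Over all 10082 tested genes there were 1444 and 1434, so the lists did not stand out. DESeq2 called 1 in knockouts, Slc2a4, and 0 in controls. The median cold change over the 43 genes was 0.09 in knockouts and -0.04 in controls on the log2 scale, beside 0.02 and -0.03 over all tested genes. Single genes ran from -0.67 to 0.77 in knockouts and from -0.67 to 0.67 in controls, while Slc2a5 and Khk stood at 1.10 and above. The pair was taken to be selected on its cold changes, so its place above the listed genes is no separate result. Between genotypes 0 of 43 passed at 4 °C or at room temperature, with 2 at an unadjusted p under 0.05 in each and 0 called by DESeq2. Over all 10082 tested genes, 633 at 4 °C and 712 at room temperature had an unadjusted edgeR p under 0.05.

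Among hexose transporters 0 of 7 tested passed in either cold comparison. Slc2a4, the insulin-responsive glucose transporter GLUT4, had a cold change of 0.35 ± 0.10 in knockouts (edgeR adjusted p = 0.0733) and 0.13 ± 0.10 in controls (edgeR adjusted p = 0.558). Its mean level was 1138 CPM in cold knockouts and 889.9 CPM in room temperature knockouts, and 1123 CPM in cold controls and 1025 CPM in room temperature controls. Slc2a12, the transporter GLUT12, stood at -0.18 ± 0.19 in knockouts and -0.45 ± 0.19 in controls, and Slc2a13, a myo-inositol transporter, at 0.60 ± 0.27 and 0.26 ± 0.26. The glucose transporter Slc2a1 and the family member Slc2a8 were tested too, and Slc2a2, a transporter that also carries fructose, was not analysed here.

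The steps around and after Khk showed no passing gene among 9 tested. Tkfc, the kinase that phosphorylates glyceraldehyde made from fructose, had a mean level of 1.217 CPM in cold knockouts and 1.06 CPM in room temperature knockouts, and 1.76 CPM in cold controls and 1.28 CPM in room temperature controls. Its cold change was 0.19 ± 0.27 in knockouts and 0.45 ± 0.26 in controls on the log2 scale. Aldoc, an aldolase that splits fructose 1-phosphate, changed by 0.20 ± 0.26 in knockouts and 0.49 ± 0.26 in controls, and Pfkm, muscle phosphofructokinase, by -0.36 ± 0.18 and -0.02 ± 0.18. Their adjusted p-values in edgeR's test ran from 0.366 to 0.965.

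The list for the polyol pathway, which makes fructose from glucose inside the cell by way of sorbitol, had 3 tested genes, of which 0 passed. Sord, sorbitol dehydrogenase, which makes the fructose, had a cold change of 0.42 ± 0.14 in knockouts (edgeR adjusted p = 0.13) and 0.40 ± 0.14 in controls (edgeR adjusted p = 0.162). Dcxr, a xylulose reductase that is on the list but outside the sorbitol steps, stood at 0.41 ± 0.25 in knockouts and 0.55 ± 0.24 in controls. Akr1b1, aldose reductase, which makes sorbitol, stood at -0.16 ± 0.20 in knockouts and 0.16 ± 0.19 in controls.

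**Figure D4:**
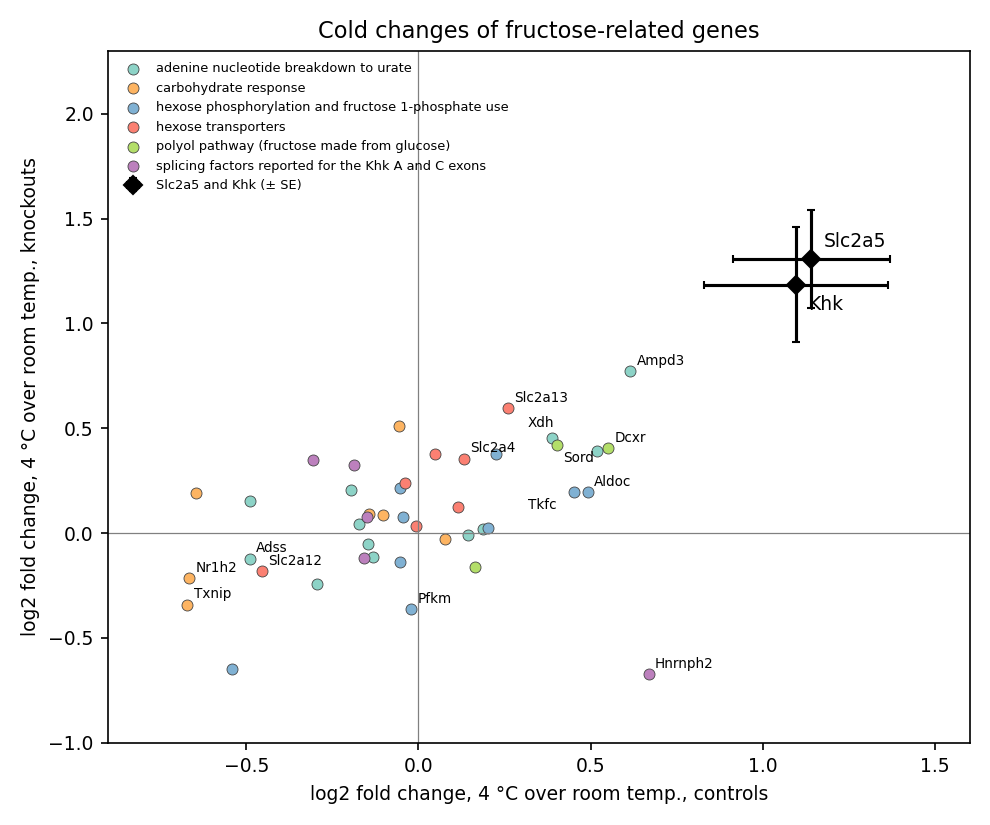
Cold change in controls (horizontal axis) and in knockouts (vertical axis) of 43 fructose-related genes, coloured by list, as log2 fold changes, with Slc2a5 and Khk as diamonds with SE bars. The listed genes lie between -0.67 and 0.77 on both axes and 0 of them passed, and the pair lies at 1.10 to 1.31. The pair was taken to be selected on these changes, so its distance from the listed genes is no separate result.

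Fructose phosphorylation uses ATP, and the AMP left over can be broken down to urate. Of 12 tested genes on the list for that route, which also holds genes such as Adss that do not break AMP down, 0 passed. Xdh, xanthine dehydrogenase, which makes urate, had a cold change of 0.46 ± 0.15 in knockouts (edgeR adjusted p = 0.102) and 0.39 ± 0.14 in controls (edgeR adjusted p = 0.194). Ampd3, an AMP deaminase, stood at 0.77 ± 0.35 in knockouts and 0.61 ± 0.35 in controls, and Adss, an adenylosuccinate synthase, at -0.12 ± 0.16 and -0.49 ± 0.15.

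Of 7 carbohydrate response genes 0 passed. Txnip, which is induced by glucose in many cells, had a cold change of -0.34 ± 0.36 in knockouts and -0.67 ± 0.35 in controls. The liver X receptors Nr1h3 and Nr1h2 stood at -0.03 ± 0.19 and -0.22 ± 0.41 in knockouts, and at 0.08 ± 0.19 and -0.67 ± 0.40 in controls. Mlxipl, the sugar-sensing factor ChREBP, was not analysed here. Of 5 splicing factors, chosen because factors of this kind are reported to set the KHK-A and KHK-C exon, 0 passed. The cold change of Ptbp1 was 0.32 ± 0.20 in knockouts and -0.19 ± 0.20 in controls, that of Hnrnpa1 was 0.35 ± 0.20 and -0.31 ± 0.20, and that of Hnrnph2 was -0.67 ± 0.47 and 0.67 ± 0.47. The interaction of Hnrnph2, -1.34 ± 0.66, did not pass (edgeR adjusted p = 0.68).

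Within groups, rats with more Slc2a5 did not detectably have more Khk. The few reads of Khk limit what r could show. They were 5 to 28 per library in room temperature knockouts and 7 to 21 in room temperature controls. A missing relation is therefore not shown. After group means were subtracted, Pearson's r over the 31 rats was 0.233 (permutation p = 0.239 within groups) and Spearman's rho 0.279 (permutation p = 0.137). Over the 11 relations computed in this family, the adjusted permutation p-values were 0.656 and 0.504. Without the 2 rats farthest from the median of Slc2a5, cold control 17 and room temperature control 3, r was 0.228. By group, r was -0.173 in cold knockouts, 0.106 in room temperature knockouts, 0.313 in cold controls and 0.788 in room temperature controls. The exact permutation p in room temperature controls was 0.0149, and 0.0595 after adjustment over the 4 groups. Without room temperature controls 1 and 2, r was 0.793 in the other 6 (exact permutation p = 0.0306, unadjusted), and over the remaining 29 rats of all groups it was 0.206.

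**Figure D5:**
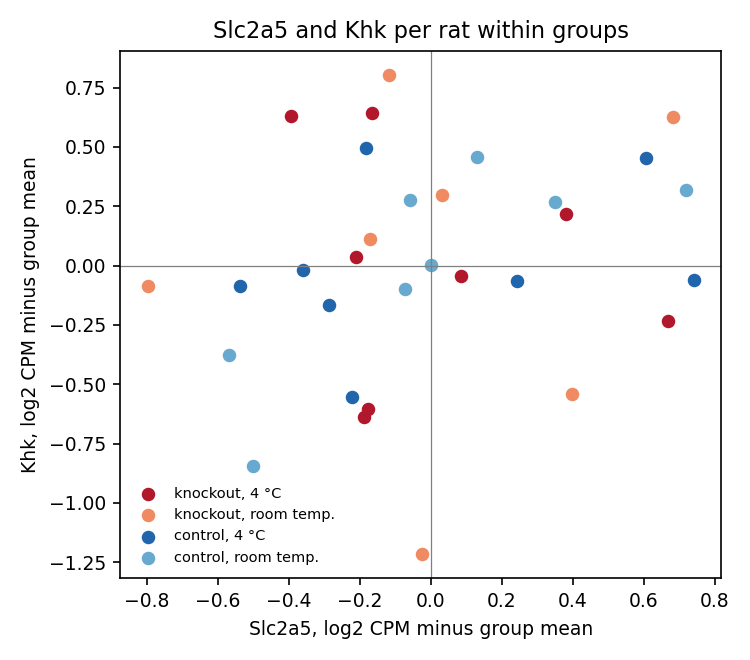
Slc2a5 (horizontal axis) and Khk (vertical axis) of each of the 31 rats, in log2 CPM minus the mean of its group, coloured by group. The points form no common line, with r = 0.233 over all rats.

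Slc2a5 did follow the leading axis of variation between libraries, a relation examined after the data were seen. How many other genes follow this axis as closely was not computed, so the relation is not shown to be particular to Slc2a5. The first principal component held 35.3% of the variance of log2 levels. Ccn1, Tsnax and Hbb, an erythrocyte marker, weighed most at its high end, and Adgrb2 and Sfxn5 at its low end. Within groups, r between this component and Slc2a5 was -0.631 (permutation p = 0.00031; adjusted p = 0.00341 over 11 relations) and rho was -0.547 (adjusted permutation p = 0.0241). Without cold control 17 and room temperature control 3, r was -0.667. Without room temperature controls 1 and 2 it was -0.614 (adjusted permutation p = 0.00946). The rats with the highest Slc2a5 levels in both cold groups, cold knockout 28 at 12.6 CPM and cold control 17 at 12.2 CPM, also had the lowest scores in their groups, -61.55 and -68.3. The same held for room temperature knockout 12, at 5.09 CPM and -55.3. It did not hold in room temperature controls, where animal 3 was highest at 5.598 CPM with a score of 23.15. The lowest score there was -43.44, in animal 1. For Khk r was -0.278 (adjusted permutation p = 0.581). With the component as a covariate the cold change of Slc2a5 was 1.29 in knockouts and 0.99 in controls, and that of Khk was 1.21 in knockouts and 1.06 in controls.

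Markers of slow fibres also moved with the cold. Of all tested genes 1.02% rose in cold knockouts and 0.595% in cold controls. Of 9 slow fibre markers 4 rose in knockouts, Myh7, Atp2a2, Myoz2 and Tnni1, and 5 rose in controls, Myh7, Atp2a2, Myoz2, Tpm3 and Tnnt1. The markers summed to 13262 to 30507 CPM in cold knockouts and 8560 to 14461 CPM in room temperature knockouts, and to 18378 to 24815 CPM in cold controls and 6124 to 16597 CPM in room temperature controls. Within groups, r of this sum was -0.0431 with Slc2a5 and -0.109 with Khk (adjusted permutation p = 0.915 and 0.786). Without room temperature controls 1 and 2, 379 of 10144 tested genes were called in cold knockouts and 38 in cold controls, both directions counted. In that fit 7 of the 9 markers rose in knockouts and 4 in controls. The sum in the other 6 room temperature controls was 8383 to 16597 CPM. The r of the sum was then 0.0978 with Slc2a5 and 0.0486 with Khk (adjusted permutation p = 0.842 for each). The part of slow fibres in the cold changes of the pair was not tested.

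The shares of all tested genes that rose were, again, 1.02% in cold knockouts and 0.595% in cold controls. Of 11 tested macrophage markers 1 rose in each genotype, the scavenger receptor Cd163. Their sum was 344 to 499 CPM in cold knockouts and 202 to 434 CPM in room temperature knockouts, and 270.2 to 463 CPM in cold controls and 66.3 to 329 CPM in room temperature controls. Of 8 tested white adipocyte markers 1 rose in cold knockouts, the hormone Retn, and 0 in cold controls by edgeR. That sum was 449 to 1212 CPM in cold knockouts and 361 to 565 CPM in room temperature knockouts, and 405 to 714 CPM in cold controls and 134 to 685 CPM in room temperature controls. Within groups, r with Slc2a5 was -0.115 for macrophage and 0.0413 for adipocyte markers, and with Khk it was -0.177 and -0.153, all with an adjusted permutation p of 0.739 or above. Without room temperature controls 1 and 2, 379 of 10144 tested genes were called in cold knockouts and 38 in cold controls, both directions counted. In that edgeR fit Cd163 and C1qb rose in cold knockouts and 0 of the 11 macrophage markers in cold controls. Retn, Adipoq, Cidec and Plin1 rose in cold knockouts and 0 of the 8 adipocyte markers in cold controls. The other 6 room temperature controls had sums of 211 to 329 CPM for macrophage and 353 to 685 CPM for adipocyte markers. The r with Slc2a5 was then 0.0507 for macrophage and 0.291 for adipocyte markers, and with Khk it was 0.0456 and 0.0459, with adjusted permutation p-values of 0.44 or above. Their part in the cold changes of the pair was not tested.

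Beside the markers of blood stand the same shares, 1.02% of all tested genes higher in cold knockouts and 0.595% in cold controls. Of 4 tested erythrocyte markers 1 rose in cold knockouts, Alas2, the first enzyme of red cell heme synthesis, and 0 in cold controls by edgeR. Their sum, most of it from 2 rows that share the symbol Hba-a2, was 448 to 2030 CPM in cold knockouts and 257 to 1087 CPM in room temperature knockouts, and 471 to 1089 CPM in cold controls and 341 to 665 CPM in room temperature controls. This sum was related to Slc2a5 within groups by rank, with rho = 0.503 (adjusted permutation p = 0.0249), while r = 0.444 did not pass (adjusted permutation p = 0.0752). For Khk r was 0.0243 (adjusted permutation p = 0.915). Without room temperature controls 1 and 2, rho was 0.542 and r 0.491 (adjusted permutation p = 0.0164 and 0.0376), and the sum in the other 6 was 380.4 to 665 CPM. The sign was not shared by all rows in cold controls. Hbb stood at -0.49 ± 0.68 (log2, SE), Alas2 at 0.57, Hba-a3 at 0.71 and the Hba-a2 rows at 0.79 and 0.67. In cold knockouts Hbb stood at 0.44 ± 0.70. Hbb also weighed toward the high end of the first principal component, with which Slc2a5 had a negative r. The part of blood RNA in the cold change of Slc2a5 was not tested.

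The genes whose levels were most like Slc2a5 over the 31 libraries, among 6692 others that carry a symbol and average 5 CPM or more, were Tmem250 (r = 0.83), Pmm1, a phosphomannomutase (r = 0.798), Extl1, a glycosyltransferase (r = 0.786), Rpa1, a subunit of replication protein A (r = 0.783), and Armc1 (r = 0.776). For Khk they were Cdkl2, a kinase (r = 0.797), Rab18, a small GTPase (r = 0.794), Tbc1d10c (r = 0.781), Rpa1 (r = 0.775) and Prodh1, proline dehydrogenase (r = 0.75). Rpa1 was on both lists, with mean levels of 63.0 CPM in cold knockouts and 45.5 CPM in room temperature knockouts, and 63.6 CPM in cold controls and 45.6 CPM in room temperature controls. Slc2a5 was the gene ranked 14 by likeness to Khk, at r = 0.711. All these values include the difference between temperatures that every pair of genes higher in the cold shares.

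After group means were subtracted the likenesses were to other genes. For Slc2a5 the 5 highest were Tfip11 (r = 0.805), Camsap2 (0.774), Suox (0.77), Ptcd1 (0.762) and Vps33a (0.762). For Khk they were Ddx5, an RNA helicase (r = 0.783), Psma4, a proteasome subunit (0.756), Map3k14 (0.742), Ypel5 (0.726) and Ttc27 (0.69). Slc2a5 ranked 1474 of 6693 genes by likeness to Khk on this measure. The libraries behind each r also share their depth and the leading axis of variation, and no test was made of these likenesses.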

How the data were processed

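Libraries of 31 gastrocnemius samples, 1 per rat, were prepared by QuantSeq 3' chemistry, per the labels' protocols. The deposited raw table holds counts of reads per gene. The deposited normalized table holds signal, the authors' counts divided by 1 size factor per library, and multiplied back it gave the raw counts to within a relative difference of 5.23e-10. Rnor 6.0 and DESeq2 1.22.2 are named in the submitters' processing notes. The sources used here do not name an aligner, a counter or a strand setting. The lowest total of a listed gene was 93 counts, and 770 of 11289 genes have no symbol.

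The test was edgeR 4.0.16 (R 4.3.3) on the raw counts, after TMM scaling and filterByExpr (minimum count 10, minimum total 15). One quasi-likelihood model with 1 mean per group was fitted to all 31 libraries (27 residual degrees of freedom, threshold 0.05). P-values are two-sided and adjusted by Benjamini-Hochberg over 10082 genes within each comparison. Intervals are the change ± its SE times the t quantile at 27 degrees of freedom. Alternatives were DESeq2 1.42.0, DESeq2 size factors, no filter, fits of 2 groups only, the first principal component as covariate and leaving out rats. Levels are CPM after TMM, and log2 CPM uses a prior count of 2. Correlations within groups use 100000 two-sided permutations within groups, or exact pairings by group (scipy 1.17.1). The relations with marker sums and the principal component, and marker values and relations without room temperature controls 1 and 2, were added after the data were seen. The code was tested on simulated data.

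The members, lists and tests were chosen with earlier results of these data known, among them that Slc2a5 passed in cold controls, so cold changes of Slc2a5 and Khk carry no test. List genes are named by rule: every passing gene, otherwise the 3 with the smallest p per list over the 5 comparisons. A gene described as not analysed was outside the tested set. Promoter sequences are RefSeq's on GRCr8, where both genes matched. Reads of Slc2a5 may overlap with those of the tRNA gene Trnap-agg69 that RefSeq places within it, while no RefSeq gene overlaps Khk. No molecular identifiers are mentioned in the labels, so intervals from counts cover counting error only.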

Additional observations from a re-analysis of the deposited data

How the results depend on the processing

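No paired analysis was possible because each animal number occurs once. Under every alternative, the cold changes of Slc2a5 and Khk kept their direction, and no genotype or interaction test of either gene passed. With each rat left out in turn, the cold change of Slc2a5 ran from 1.19 to 1.46 in knockouts and from 1.01 to 1.27 in controls, and that of Khk from 0.9977 to 1.335 in knockouts (log2) and from 0.99 to 1.18 in controls. The knockout minus control difference ran from -0.0217 to 0.228 for Slc2a5 and from -0.0468 to 0.168 for Khk at 4 °C, and from -0.223 to 0.0496 and from -0.18 to 0.16 at room temperature. The interaction ran from 0.04 to 0.32 for Slc2a5 and from -0.10 to 0.24 for Khk. Without room temperature controls 1 and 2 together, the room temperature difference was 0.0034 for Slc2a5 and 0.14 for Khk, and the interaction of Khk was -0.0535. The cause of these changes of sign was not tested.

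Of the 43 listed genes, the count in cold knockouts, 0 in the edgeR test, was 1 with DESeq2 (Slc2a4), 3 with the first principal component as covariate (Slc2a4, Sord and Xdh) and 1 without room temperature controls 1 and 2 together (Slc2a4). It ran from 0 to 1 with single rats left out, and was 1 without room temperature control 2. In cold controls the covariate gave 1 (Adss). Over all genes, the calls in cold knockouts were 139, against 322 with DESeq2, 674 with the covariate, 53 in a fit of the 2 groups only and 379 without room temperature controls 1 and 2. In cold controls they were 86, against 219, 379, 93 and 38 under those settings. With single rats left out, they ran from 56 (without room temperature knockout 14) to 231 (without room temperature control 2) in cold knockouts and from 36 (without cold control 21) to 154 (without room temperature control 4) in cold controls, so the shares of all genes called move with single rats. Between genotypes at 4 °C the count was 1, against 6 with DESeq2, 8 with the covariate and 4 without room temperature controls 1 and 2. The cause was not tested. Read depth limits Khk, with 5 to 28 reads per library in room temperature knockouts.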
